A study of Mus musculus with 11 samples.

Results

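Mitochondrial ribosomal protein genes were examined in macrophages sorted from mouse mammary tumours. The genes were taken by symbol, as every entry of the deposited expression table named Mrpl or Mrps followed by a number and, in some, the letter a, b or c, which gave 75 of 17475 genes. The choice used symbols alone. Of the 75, 48 encode proteins of the large subunit, counting Mrps30 and Mrps18a, and 26 encode proteins of the small subunit. Mrps36 carries the family name but is known as a subunit of the 2-oxoglutarate dehydrogenase complex, so it was kept apart.

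The mitochondrial ribosome translates the messenger RNAs of the mitochondrial genome, which encode core subunits of the respiratory chain and the ATP synthase. All of its proteins are encoded in the nucleus, made in the cytosol and imported, then assembled on the mitochondrial ribosomal RNAs. Some descend from bacterial ribosomal proteins and others were added in the mitochondrial lineage. MYC, the transcription factor overexpressed in the MYC mice, is widely described as a driver of genes for ribosomes and mitochondria.

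The data were 11 messenger RNA libraries from 6 female mice backcrossed to B6, with 3 libraries each of control TAMs, control MTMs and MYC TAMs and 2 of MYC MTMs. TAMs are tumour-associated macrophages of the parenchyma, sorted as F4/80 and Vcam positive, and MTMs are mammary tissue macrophages of the stroma, sorted as F4/80 positive, Vcam negative and FOLR2 positive. Both genotypes carried the PyMT oncogene, and MYC mice had the genotype S100a8-creRosa26-LSL-MYCPyMT, in which Cre driven by the S100a8 promoter releases a MYC transgene. Every mouse was irradiated at 7 weeks of age and received 3 M (mega) bone marrow cells of WT B6 donors. A low protein diet began 2 weeks later and lasted 6 weeks, in every group, so that the diet itself has no comparison here. The marrow carried neither transgene, and the labels do not say how many sorted macrophages came from the donor or from surviving host cells. Mice 1, 3 and 5 were controls and mice 2, 4 and 6 carried MYC, and 5 of the 6 gave both cell types.

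Depth, read off the steps between low values, came to about 32.6 to 43.2 M reads in genes per library, with the fewest in the MYC TAMs of mouse 4. That library also stood apart in having 581 genes at their lowest value, against 2072 to 3522 in the others. This count covers only genes whose lowest value is shared between libraries. Folr2 followed the labels, at 7.67 to 8.45 in the MTM libraries and 0.96 to 3.62 in the TAM libraries, on the log2 expression scale used throughout. Vcam1, whose protein gates the TAMs, was at 7.64 to 8.60 in control TAMs and at 0.96 to 2.82 in the libraries labelled MYC TAMs, so their transcript level did not match the gate. It was at 5.25 to 6.86 in control MTMs and 2.31 to 2.32 in MYC MTMs, so that the Vcam negative control MTMs were above the MYC TAMs. Emr1, the gene of F4/80, was at 7.50 to 8.37 in MYC TAMs and at 9.40 to 9.96 in the other 8 libraries. Markers of mammary epithelium were present in every library, and the summed level of 12 of them (log2 of the sum plus 1) ran from 9.25 to 10.3 for control TAMs, from 8.74 to 9.83 for control MTMs, from 5.31 to 8.65 for MYC TAMs and from 8.47 to 8.59 for MYC MTMs. The part of epithelial RNA in the members' levels was not tested.

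All 75 genes were located in the GENCODE annotation of GRCm38, on 17 chromosomes, and the exons of 31 overlap an exon of another gene, 7 of them on the same strand. Promoters came from RefSeq (build GRCm38.p6), as windows of 300 bases that run from 250 bases before to 50 bases after a gene's start, and 66 of the 75 members had one. Only 4 are printed, in the direction of transcription and in lower case. That of Mrpl27 is shown because it is the one member that passed a test, and those of Mrpl33, Mrpl17 and Mrps23 were chosen after their values were seen, because these genes fell to a low level in some libraries of a group and not in others. Capitals mark matches, on either strand, to the letters CCGGAAG (core of ETS factor sites), GGGCGG (SP factors) or GCGCATGCG (NRF1).
Mrpl27, chr11:94653541-94653840, plus strand: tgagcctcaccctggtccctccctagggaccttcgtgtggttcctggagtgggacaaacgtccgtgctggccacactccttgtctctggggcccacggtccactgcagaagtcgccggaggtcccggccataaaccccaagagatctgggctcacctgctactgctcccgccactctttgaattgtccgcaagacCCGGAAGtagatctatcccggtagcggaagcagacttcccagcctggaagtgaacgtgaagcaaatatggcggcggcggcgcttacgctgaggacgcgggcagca
Mrpl33, chr5:31613701-31614000, plus strand: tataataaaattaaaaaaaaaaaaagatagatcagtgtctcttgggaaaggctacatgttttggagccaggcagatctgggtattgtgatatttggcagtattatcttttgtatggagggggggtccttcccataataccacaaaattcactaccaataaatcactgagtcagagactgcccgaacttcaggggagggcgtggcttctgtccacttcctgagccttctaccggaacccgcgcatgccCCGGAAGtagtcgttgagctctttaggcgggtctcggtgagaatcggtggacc
Mrpl17, chr7:105811038-105811337, minus strand: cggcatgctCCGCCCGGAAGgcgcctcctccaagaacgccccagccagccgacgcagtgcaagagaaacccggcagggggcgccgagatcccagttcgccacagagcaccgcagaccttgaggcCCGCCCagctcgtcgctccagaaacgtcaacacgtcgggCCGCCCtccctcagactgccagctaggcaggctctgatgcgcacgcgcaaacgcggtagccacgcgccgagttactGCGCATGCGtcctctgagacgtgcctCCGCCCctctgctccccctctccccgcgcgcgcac
Mrps23, chr11:88204138-88204437, plus strand: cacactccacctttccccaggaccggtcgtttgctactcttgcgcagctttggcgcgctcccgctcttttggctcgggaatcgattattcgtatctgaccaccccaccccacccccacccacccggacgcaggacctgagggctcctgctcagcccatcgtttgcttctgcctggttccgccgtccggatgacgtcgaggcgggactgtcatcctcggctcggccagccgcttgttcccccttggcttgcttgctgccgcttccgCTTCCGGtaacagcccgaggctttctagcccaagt
The first capital run of Mrpl17 joins an SP and an ETS match that overlap. All 4 printed windows hold ETS letters, which 23 of the 66 members did. The printed genes do not stand for all uneven members. Mrpl2, Mrpl20 and Mrps11 also fell in some libraries and hold no ETS letters, while Mrps21, also uneven, holds them. Mrpl2 and Mrpl20 hold CACGTG, counted below.

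Counted by gene, ETS letters were the most frequent of 3 motifs that members held more often than genes of the table did. They were in a promoter of 23 of the 66 members (34.8%), against 16.5% of the 12165 genes of the table with a promoter. The corresponding shares were 12.1% and 2.88% for AAGATGGCG, the letters of YY1 sites, and 10.6% and 3.45% for the NRF1 letters. ETS, NRF1 and YY1 factors are known for binding near the starts of many nuclear genes of mitochondrial proteins. The SP letters were in 33 of the 66 members against 60.6% of genes, and CACGTG, the E-box letters to which MYC can bind, were in 7.58% against 10.7%, or 5 members. A gene can have several windows. Counted by window, E-box letters stood in 9.72% of 72 member windows, against 9.02% of the 15470 windows of the table's genes. ETS letters stood in 31.9% and 14.1% of these. Over all 32851 windows of the RefSeq table, of any gene, the shares were 8.86% for ETS letters and 7.15% for E-box letters. These are counts of letters only, and no binding was measured.

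Levels of the members covered a wide range, from a mean of 1.07 for Mrps2 to 8.22 for Mrpl42, with a median of 4.01. Deposited values appear to be scaled for gene length, so levels may be set side by side between genes. Mrpl42, a large subunit protein without a bacterial counterpart, had the highest level in every library, with control TAMs at 8.06, 8.35 and 8.34, their MTMs at 8.36, 8.81 and 8.50, MYC TAMs at 8.10, 7.98 and 7.63 and MYC MTMs at 8.24 and 8.06. Next came Mrps18c, at 6.60 to 7.85 over the 11 libraries, and Mrpl4, at 6.77 to 7.27. The 3 lowest were the small subunit genes Mrps2 (0.21 to 1.98), Mrps10 (0.32 to 2.23) and Mrps11 (0.22 to 2.54), each of which varied several-fold among libraries of a group. The 3 homologs of a bacterial small subunit protein, Mrps18a in the large subunit and Mrps18b and Mrps18c in the small one, differed in level. Mrps18c was above the others in every library, while Mrps18b, at 3.16 to 3.91, and Mrps18a, at 2.37 to 4.24, overlapped.

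**Figure D1:**
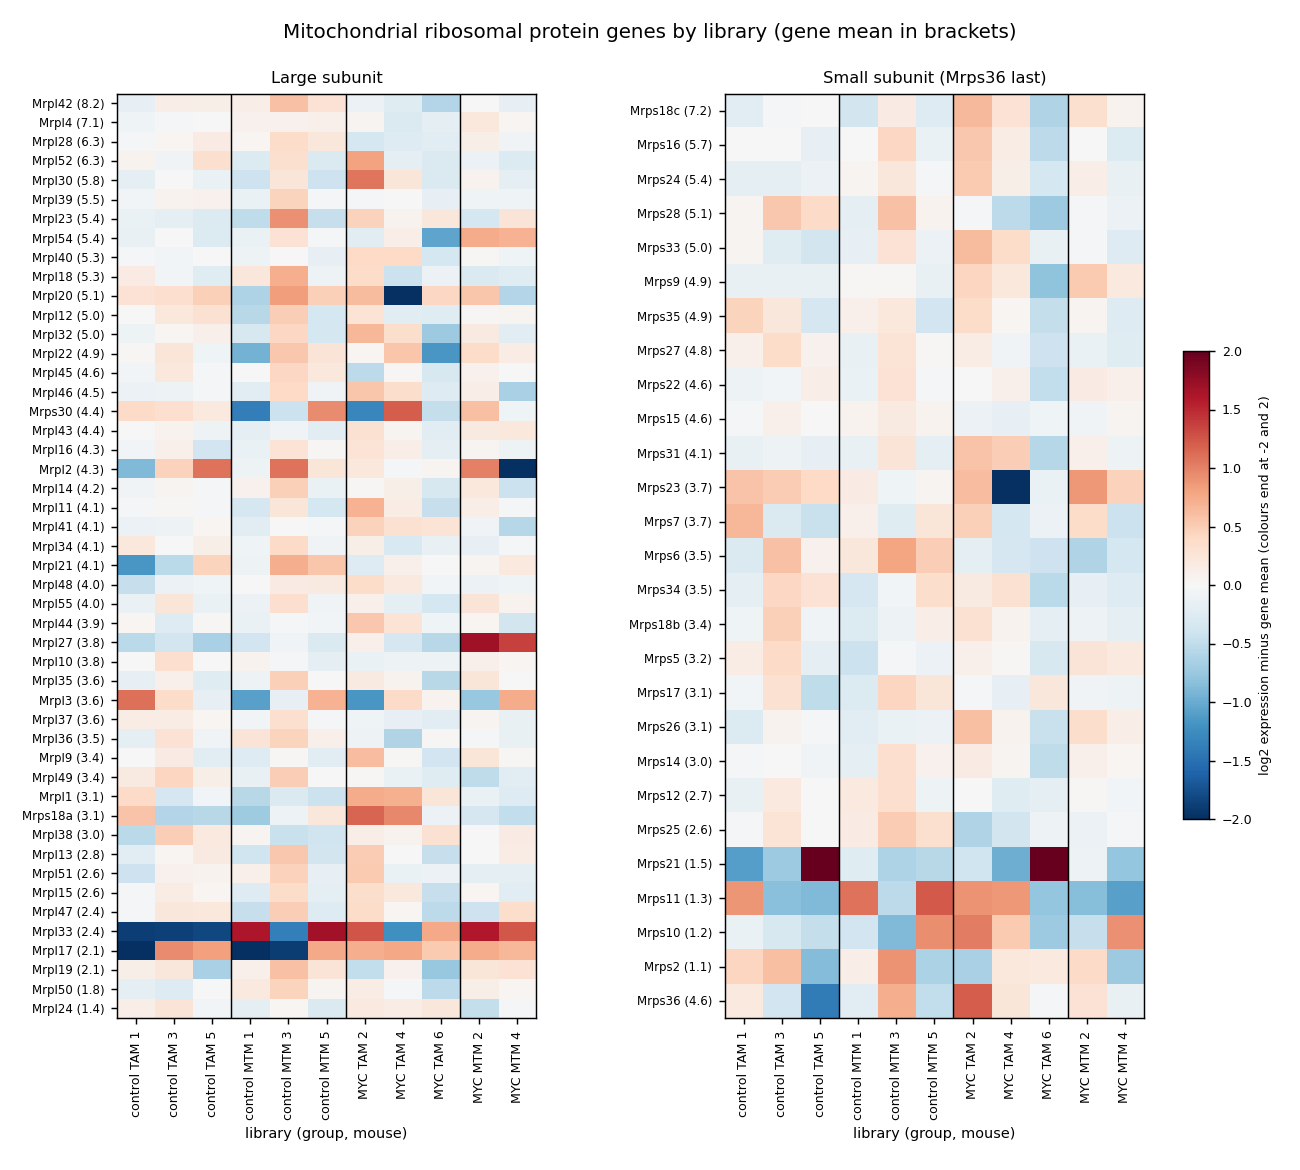
Log2 expression of each of the 75 genes in the 11 libraries, minus the gene's own mean (colour, ending at -2 and 2), with the mean in brackets, for the large subunit (left) and the small subunit with Mrps36 last (right). Vertical lines divide the 4 groups. Most rows are pale in every library, while Mrpl27 is dark red in both MYC MTM libraries. Rows such as Mrpl33, Mrpl17, Mrps23 and Mrps21 hold dark libraries that differ from others of the same group.

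Between TAMs and MTMs of control mice, none of the 75 members differed past an adjusted p of 0.05 in limma, where 2.37% of all genes did, and 1 member had an unadjusted p below 0.05 (11.8% of all genes). The median difference of the members, TAM minus MTM, was -0.06, beside -0.04 for the genes with a mean of 1 or more. Precision was enough to bound most of them: in 60 of 75 the 95% interval of the difference lay within 1 log2 unit of 0, against 78.4% of all genes. The libraries of the groups did not overlap for 1 member that was higher in TAMs and 7 that were lower, where 6.9% and 12.0% of all genes did so. In bulk RNA, fewer cells with a transcript and less of it per cell cannot be told apart, here and below.

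The one member below an unadjusted p of 0.05 was Mrpl33, a small protein of the large subunit with a bacterial counterpart. Its exons overlap Gm43809 on the same strand, so that reads of both genes could be shared. In GENCODE the gene starts at chr5:31596935, upstream of the promoter window printed above. Mrpl33 is meant in what follows. Its level was 0.49, 0.51 and 0.56 in the control TAMs of mice 1, 3 and 5, and 3.99, 1.01 and 4.06 in their MTMs. The MTMs of mouse 3 thus lay nearer to the TAMs than to the other MTMs, though the groups did not overlap. The difference was -2.50 ± 0.83 (SE, n = 3 and 3), adjusted p = 0.208 by limma, and it passed only without the MTMs of mouse 3 (-3.50) or with library weights. Mrps11 (-0.87 ± 0.65) and Mrpl21 (-0.81 ± 0.37) were the next lowest in TAMs, and Mrps21 (1.00 ± 1.14), Mrpl17 (0.95 ± 0.87) and Mrpl3 (0.61 ± 0.59) the highest. All 5 overlapped between the groups, and their adjusted p values were 0.442 to 0.937.

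In MYC mice, 1 of 75 members differed between TAMs and MTMs, against 4.49% of all genes, and it was Mrpl27, lower in TAMs (3.82% of all genes were called lower). Mrpl27 encodes a large subunit protein with a bacterial counterpart, placed at the central protuberance near the peptidyl transferase centre. The gene lies at chr11:94653767-94660089 on the plus strand, and its first exon overlaps the start of Eme1, which runs the other way. Estimated reads ran from 227 in the lowest library to 1310 in the highest. Its level was 5.51 and 5.19 in the MTMs of MYC mice 2 and 4. In the TAMs of MYC mice 2, 4 and 6 it was 3.92, 3.48 and 3.26. Control MTMs of mice 1, 3 and 5 gave 3.43, 3.75 and 3.52, and their TAMs 3.28, 3.45 and 3.17. The 2 MYC MTM libraries stood above each of the other 9, by at least 1.27 (5.19 against 3.92), and the other 3 groups lay close together.

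The difference between TAMs and MTMs of MYC mice was -1.79 ± 0.22 (SE, n = 3 and 2), a 3.46-fold lower level on the log2(value + 1) scale, with adjusted p = 0.00219 by limma. It kept its call in 19 of 20 alternatives, with adjusted p from 0.000974 to 0.0746, and lost it where the model held these groups alone. Mrpl27 was also the 1 member of 75 past the threshold between MYC and control MTMs (0.618% of all genes, 0.338% higher), at 1.78 ± 0.22 higher in MYC MTMs (n = 2 and 3, adjusted p = 0.00924 by limma). That call rests on both MYC MTM libraries, as the adjusted p was 0.117 without mouse 2 (difference 1.62) and 0.0615 without mouse 4 (1.94). The 2 comparisons share the MYC MTM libraries and are not independent. In control mice the TAM minus MTM difference of Mrpl27 did not pass, and the difference of the differences, MYC minus control, was -1.53 ± 0.29, adjusted p = 0.0421 (1.24% of all genes passed, 0.996% with a negative sign). Of the 75 members 4 had an unadjusted p below 0.05 for this difference (10.9% of all genes). In 30 its 95% interval lay within 1 log2 unit of 0 (53.2% of all genes, 29.6% of those with a mean of 1 or more). This was the least precise of the 5 comparisons.

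That last call was lost under 11 of 19 alternatives, at adjusted p from 0.0247 to 0.217, while the value stayed between -1.31 and -1.71. With the mouse as a fixed block, which pairs the cell types of an animal, it was -1.38 with adjusted p = 0.0766. It was also lost on leaving out MYC MTM mouse 2 (-1.36, adjusted p = 0.216) or 4 (-1.69, 0.126), MYC TAM mouse 4 (-1.49, 0.0883), control MTM mouse 1 (-1.46, 0.104) or 5 (-1.50, 0.118), or control TAM mouse 1 (-1.54, 0.0919), 3 (-1.45, 0.105) or 5 (-1.59, 0.0794). The overlapping neighbour Eme1, a subunit of a DNA structure-specific endonuclease, was at 0.73 and 1.28 in the MYC MTMs and 0.35 to 1.40 in the others. Lrrc59, upstream, was at 5.28 and 5.26 in MYC MTMs, inside its range of 4.34 to 5.56 elsewhere. Xylt2, downstream, was at 4.68 and 4.77, just above its range of 3.56 to 4.56 elsewhere. None of 12 epithelial markers passed between MYC and control MTMs, but 3 were higher and 5 lower without overlap, and their summed level was 8.47 to 8.59 in MYC MTMs against 8.74 to 9.83. Their part in the Mrpl27 difference was not tested. None of the 5 annotated pseudogenes named after a member was in the deposited table.

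**Figure D2:**
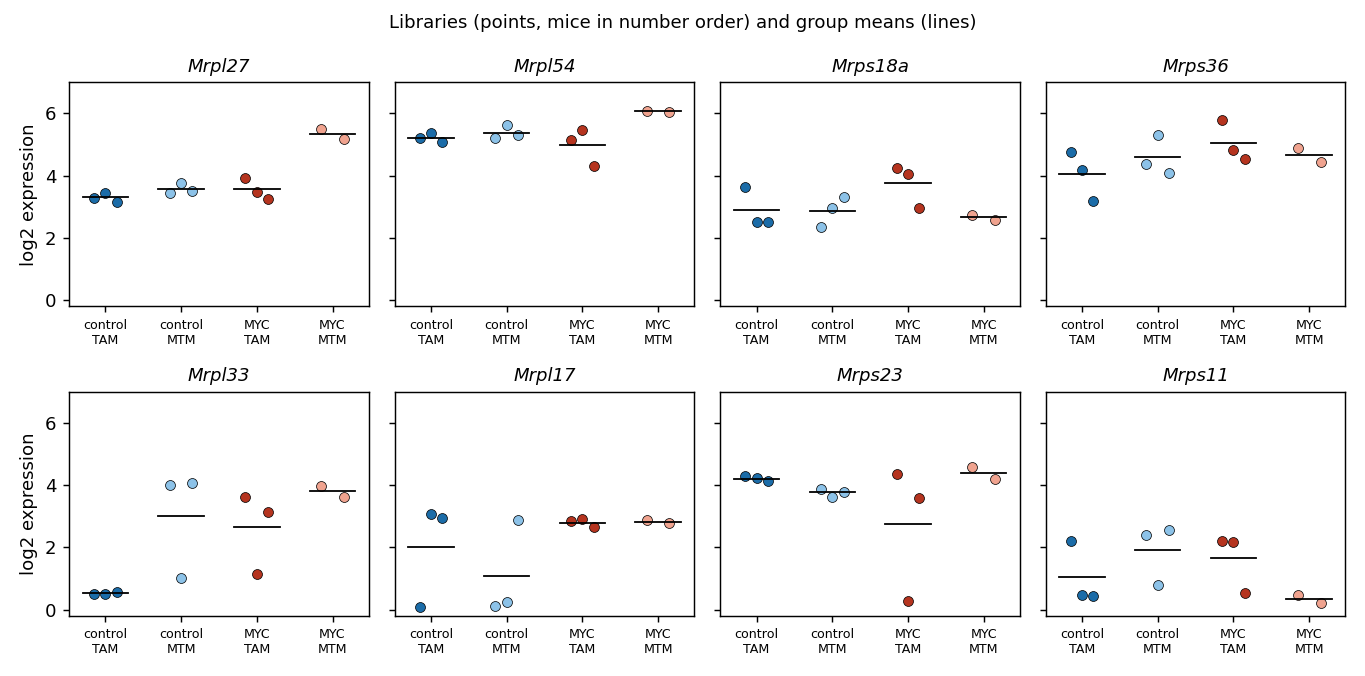
Log2 expression (vertical axis) of 8 members in each group (horizontal axis). Points are libraries with mice in number order and lines are group means. Mrpl27 is at 5.19 and 5.51 in MYC MTMs and at most 3.92 elsewhere, and the lower row shows members whose libraries within a group split into a high and a low level.

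Beyond Mrpl27, 4 members had an unadjusted p below 0.05 between TAMs and MTMs of MYC mice (5 of 75 with it, against 16.8% of all genes), and none of the 4 passed adjustment. Mrpl41, a protein of the large subunit without a bacterial counterpart, had levels of 4.59, 4.42 and 4.39 in TAMs and 4.06 and 3.56 in MTMs (0.66 ± 0.18, adjusted p = 0.0716 by limma). It passed with the mouse as a random block, with quantile normalisation, with median centring or with no variance trend. Mrpl54, on the list of stalk proteins, was at 5.14, 5.48 and 4.30 against 6.09 and 6.05 (-1.09 ± 0.30, adjusted p = 0.0777). It passed without the TAMs of mouse 4, with library weights, or with low genes left out (means below 1). Mrpl1, which is on the mobile stalk that bears its bacterial name, was 0.75 ± 0.24 higher in TAMs (0.128), and Mrps18a 1.09 ± 0.47 higher (0.274). The largest differences after Mrpl27, of Mrps23 (-1.65 ± 0.92), Mrps11 (1.30 ± 0.73), Mrpl33 (-1.16 ± 0.93) and Mrpl2 (1.13 ± 1.00), had wide errors. The median of the 75 was 0.02, beside -0.20 for the genes with a mean of 1 or more. In 50 of 75 members the 95% interval lay within 1 log2 unit of 0 (67.3% of all genes, 48.9% of those with a mean of 1 or more). The groups did not overlap for 7 higher and 8 lower members (6.82% and 23.5% of all genes).

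**Figure D3:**
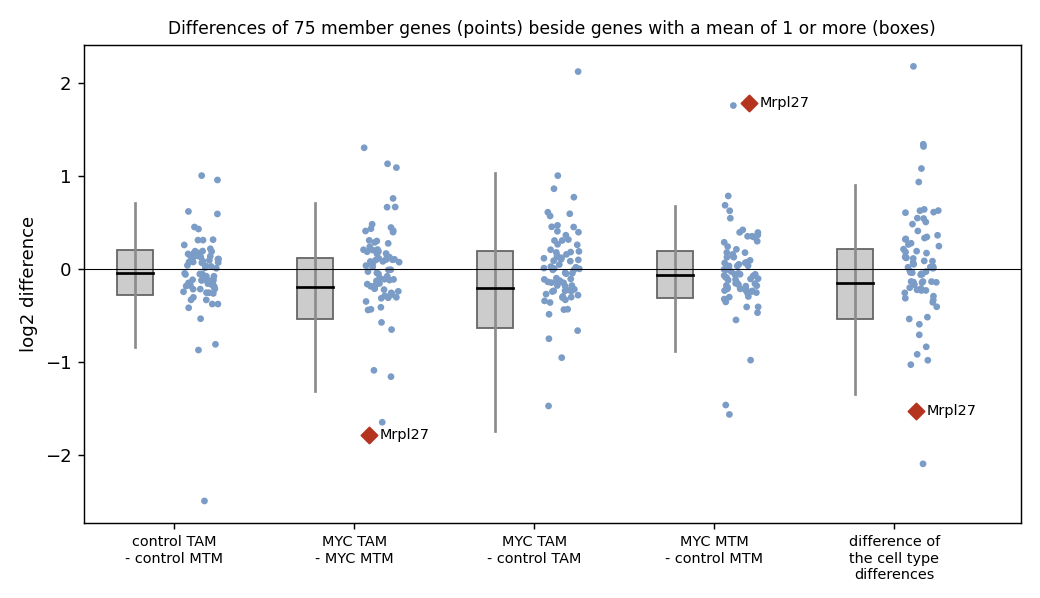
Log2 difference (vertical axis) of the 75 members (points, spread sideways at random) in the 5 comparisons, beside the genes with a mean of 1 or more (box for the middle 50% with the median, line from the 5th to the 95th percentile). Diamonds mark Mrpl27, the member past an adjusted p of 0.05, at -1.79, 1.78 and -1.53. Elsewhere the points gather around 0.

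Between MYC and control TAMs, the comparison with the most changed genes, no member passed, against 15.9% of all genes. An unadjusted p below 0.05 was reached by 7 of 75, against 28.0% of all genes. The members' median was -0.01 and that of the genes with a mean of 1 or more was -0.21. In 56 of 75 the 95% interval lay within 1 log2 unit of 0 (65.9% of all genes, 48.0% of those with a mean of 1 or more). Between the groups 4 higher and 7 lower members did not overlap, where 8.03% and 22.1% of all genes did so. In simulated data the test recovered 33.9% of 112 placed changes of 1 log2 unit and 87.5% of 88 changes of 2 units. Only these genes were changed among 17475 there, so the adjustment was stricter than here, where 15.9% passed. The power in the real data was therefore not measured.

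Members nearest to a call in this comparison differed in both directions. Mrps28, a small subunit protein, had levels of 5.03, 4.55 and 4.34 in MYC TAMs, against 5.12, 5.60 and 5.46 in control TAMs (-0.75 ± 0.24, adjusted p = 0.0652 by limma). All 3 MYC libraries were below the 3 control ones, and it passed without MYC TAM mouse 2 or control MTM mouse 3, or when only genes whose mean reached 1 were tested. Mrpl28, with a bacterial counterpart, was at 5.97, 6.07 and 6.10 against 6.29, 6.37 and 6.48, which is also without overlap though small (-0.34 ± 0.13, adjusted p = 0.120). In the other direction Mrpl41 was 0.40 ± 0.16 and Mrpl48 0.39 ± 0.16 higher in MYC TAMs, both without overlap (adjusted p = 0.123 and 0.135). Mrpl33 was at 3.63, 1.16 and 3.14 in MYC TAMs against the uniformly low control TAMs (2.12 ± 0.83, adjusted p = 0.125). It passed without control MTM mouse 3, with library weights or with median centring. Mrps36, of the dehydrogenase complex, was at 5.78, 4.82 and 4.55 against 4.78, 4.20 and 3.18 (1.00 ± 0.47, 0.210), and Mrps18a at 4.24, 4.05 and 2.96 against 3.65, 2.50 and 2.52 (0.86 ± 0.42, 0.220). Groups overlapped for both.

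The count of 0 in this comparison depended on scaling and on single libraries. Genes with a mean of 1 or more fell by a median of 0.21 in MYC TAMs as deposited. Setting the library medians of those genes equal moved the median of all 17475 genes from -0.02 to 0.28 and that of the members from -0.01 to 0.29. With that scaling 8 members passed, all higher in MYC TAMs. They were Mrpl1, Mrpl33, Mrpl41, Mrpl44, Mrpl48, Mrps18a, Mrps33 and Mrps36. All genes include those whose mean lay under 1, whereas the lowest member mean was 1.07, so 0.28 is not a like comparator. The median of the better expressed genes alone was not set beside the members under this scaling or the next. Whether members moved as those genes did is therefore left undecided. With quantile normalisation 3 members passed, and the members' median was 0.20 beside 0.02 for all genes. The count was 3 without MYC TAM mouse 6 (Mrpl40, Mrps31 and Mrps33), 2 without control MTM mouse 3 (Mrpl33 and Mrps28), and 1 without MYC TAM mouse 2 (Mrps28) or control TAM mouse 1 (Mrpl1). The share of all genes called under each alternative was not set beside these counts, so none is read as a result about the members. Marker lists differed between MYC and control TAMs as well, where 12.0% of all genes were called lower and 3.89% higher. Of the 12 listed for dividing cells, 11 genes fell in MYC TAMs, with a summed level of 6.62 to 7.36 against 8.02 to 8.62 in control TAMs. Of 9 T and NK cell markers 5 fell, with a summed level of 0.876 to 2.12 against 5.29 to 6.77, and 4 of 12 epithelial markers were lower. Of 8 macrophage markers 3 were lower and 2 higher. The lower ones included Csf1r, the receptor for the macrophage growth factor CSF1, at 7.59 to 8.09 against 10.25 to 10.74, and the higher ones Cd68, a lysosomal protein, at 10.18 to 10.41 against 8.17 to 8.51. The part of these lists in the members' differences was not tested.

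Role by role, the members in this comparison gave the same picture. Mrpl12, the stalk protein that also binds the mitochondrial RNA polymerase, had 5.31, 4.82 and 4.79 in MYC TAMs against 5.05, 5.25 and 5.34 in control TAMs (-0.24 ± 0.26). Mrpl45, which anchors the ribosome to the inner membrane at the exit tunnel, differed by -0.31 ± 0.17, and Mrpl44, of the same region, by 0.31 ± 0.19. Mrps12, at the decoding centre, differed by -0.15 ± 0.17, Mrps16 by 0.12 ± 0.25 and Mrps22 by -0.12 ± 0.18. Adjusted p was 0.290 or more for each of the 6. By list, the medians were -0.24 over the 4 stalk proteins measured, -0.01 over 8 at the exit tunnel, 0.18 over 7 of the central protuberance and -0.13 over 5 of the decoding and messenger path, and no member of these lists passed. The 48 large subunit genes had a median of -0.001 and the 26 small subunit genes of -0.09.

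Between MYC and control MTMs, 3 of 75 members had an unadjusted p below 0.05 (10.1% of all genes) and the median was -0.06, the same as for the genes with a mean of 1 or more. Besides Mrpl27, these were Mrps6 and Mrpl54. Mrps6, a small subunit protein with a bacterial counterpart, was at 2.93 and 3.19 in MYC MTMs and 3.77, 4.33 and 4.03 in control MTMs (-0.98 ± 0.26, adjusted p = 0.172 by limma). Both MYC libraries were below the control ones, and with library weights it passed. Its exons overlap Slc5a3 on the same strand, so that reads of these 2 genes could be shared. Mrpl54 was 0.68 ± 0.30 higher in MYC MTMs (adjusted p = 0.481). Mrpl17 (1.75 ± 0.98), Mrpl2 (-1.47 ± 1.00) and Mrps11 (-1.57 ± 0.73) had larger differences with adjusted p of 0.526 or more. In 54 of 75 the interval lay within 1 log2 unit of 0 (73.6% of all genes, 59.3% of those with a mean of 1 or more). Between the groups 9 higher and 10 lower members did not overlap, where 11.1% and 20.1% of all genes did so.

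Some members lay at distant levels in libraries of 1 group. A gap of more than 1 between neighbouring values of the 11 libraries was present in 8 of 75 members, or 10.7%, against 10.2% of the 9017 genes in the range of the member means. A range over 1.5 within some group was present in 14 of 75 (18.7% against 14.2%). Of the 8 members with such a gap, 7 also had a range above 1 within a group, and the other was Mrpl27, whose gap lay between groups. At the other end, 46 members stayed within a range of 1 in every group.

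Mrpl17, at the exit tunnel, was at 0.08, 3.06 and 2.93 in the control TAMs of mice 1, 3 and 5 and at 0.10, 0.23 and 2.88 in their MTMs. It was at 2.64 to 2.90 in all 5 MYC libraries. The 3 low libraries were thus all of control mice, both cell types of mouse 1 and the MTMs of mouse 3, with about 11.7 estimated reads in the lowest library and 1680 in the highest. Mrps23, a small subunit protein without a bacterial counterpart, was at 0.27 in the MYC TAMs of mouse 4 and at 3.59 to 4.59 in the other 10 libraries. Mrpl20 was at 2.29 in that same library and at 4.51 to 5.96 elsewhere. That library is the one with few genes at a shared lowest value. Without it, the MYC TAM minus control TAM difference of Mrpl20 went from -0.96 to 0.16, and that of Mrps23 from -1.48 to -0.24.

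Other members had their odd libraries elsewhere. Mrpl2, a core protein of the large subunit, was at 1.18 in the MYC MTMs of mouse 4 and at 3.43 to 5.40 in the others. Mrps21, with a bacterial counterpart, was at 4.94 in the control TAMs of mouse 5 and 3.57 in the MYC TAMs of mouse 6, and at 1.41 or less in the other 9. Mrps30 was at 3.00, 3.96 and 5.34 in control MTMs and 3.08, 5.60 and 3.91 in MYC TAMs. No library or mouse was the odd one for all of these genes. Mrps11 and Mrpl46 start head to head on chromosome 7, with overlapping exons on opposite strands. Mrps11 was at 2.18 to 2.54 in 5 libraries and 0.22 to 0.79 in the other 6, whereas Mrpl46 stayed at 3.80 to 5.01 in all 11. Both had their lowest value in the MYC MTMs of mouse 4.

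Within groups, many members were high or low in the same library. In MYC TAMs, 53 of 75 were highest in mouse 2 and 50 were lowest in mouse 6, against 31.6% and 40.8% of the genes with a mean of 1 or more. In control MTMs, 57 were highest in mouse 3 and 48 lowest in mouse 1 (44.4% and 39.0% of genes). In MYC MTMs 57 were higher in mouse 2 than in mouse 4 (48.9% of genes), and in control TAMs 39 were highest in mouse 3 (44.7%). Members share a library, so these counts describe libraries and are not independent observations.

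The sizes were modest for the members and larger for the ribosome of the cytosol. Control TAMs had median member levels of 3.98, 4.09 and 3.96, and control MTMs of 3.88, 4.17 and 4.03. For MYC mice the TAM medians were 4.20, 4.05 and 3.68 and the MTM medians 4.12 and 3.93. In MYC TAMs the medians of 79 cytosolic ribosomal protein genes were 7.68, 7.36 and 6.54, and those of 76 oxidative phosphorylation genes 6.85, 6.24 and 6.06, in the same order of mice 2, 4 and 6. In control MTMs the cytosolic medians were 5.76, 6.98 and 6.12, again highest in mouse 3 and lowest in mouse 1. The mean level of 12 epithelial markers in MYC TAMs had the same order too, at 3.87, 2.62 and 1.65, and in control MTMs it was 3.73, 4.25 and 3.68. Its part in the library order was not tested. Members such as Mrps18c (7.85, 7.48 and 6.60) and Mrps9 (5.35, 5.11 and 4.10) show this order in MYC TAMs, and were picked after their values were seen. Mrps9 was flat in control TAMs, at 4.76 in each.

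**Figure D4:**
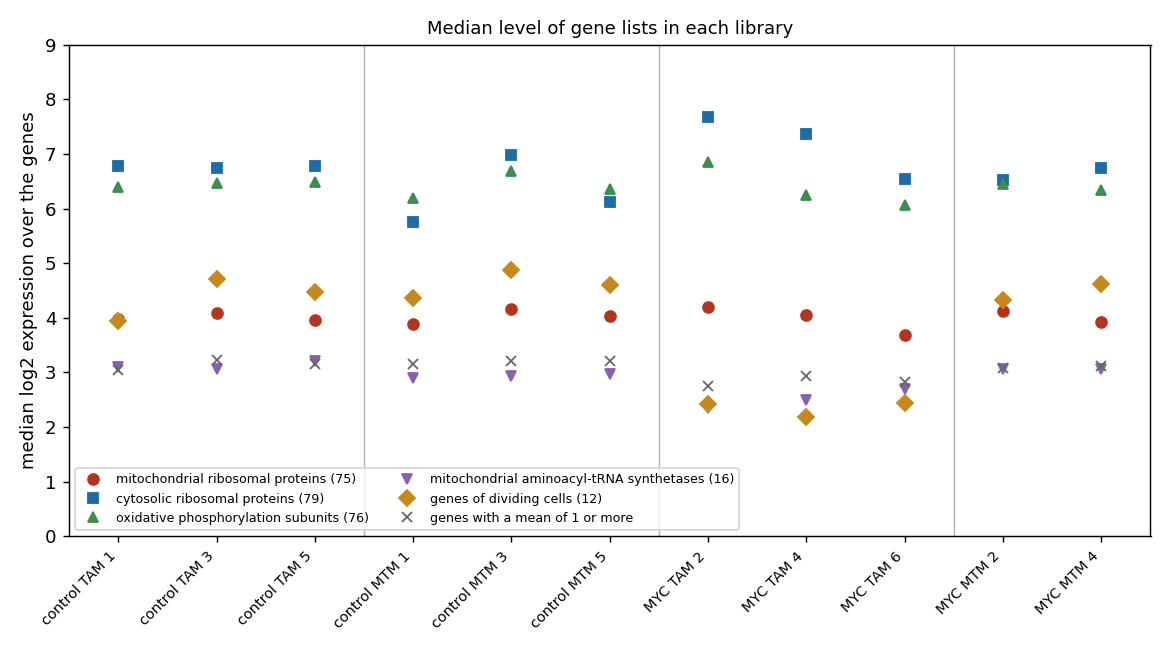
Median log2 expression (vertical axis) of gene lists in each of the 11 libraries (horizontal axis), with vertical lines between groups and the number of genes in brackets. In MYC TAMs the medians of mitochondrial and cytosolic ribosomal proteins are highest in mouse 2 and lowest in mouse 6. Synthetases and genes of dividing cells lie below their control TAM levels in all 3 mice. So do the genes with a mean of 1 or more, at 2.76, 2.93 and 2.83 against 3.04, 3.23 and 3.15.

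Other parts of the mitochondrial translation machinery were measured by lists that do not overlap the members. Mitochondrial aminoacyl-tRNA synthetases, which charge the transfer RNAs, had the most calls: 5 of 16 were lower in MYC than in control TAMs as deposited (median -0.59, 15 of 16 negative; 12.0% of all genes were called lower), but 0 were lower after quantile normalisation (median -0.31) and 0 lower and 1 higher after median centring (-0.29). Vars2, the valine enzyme, had 1.19, 1.22 and 1.41 in MYC TAMs against 1.91, 2.20 and 2.02 in control TAMs (-0.78 ± 0.17, adjusted p = 0.0150 by limma). Sars2, the serine enzyme, was lower by a like amount (-0.61 ± 0.14, adjusted p = 0.0178), as was Ears2, the glutamate enzyme (-0.81 ± 0.20, 0.0230). Leaving out MYC TAM mouse 2 or control TAM mouse 5 gave a count of 2, leaving out control MTM mouse 5 one of 3, and leaving out control TAM mouse 3 one of 0, as did a model of only the groups compared. No synthetase passed in the other 4 comparisons.

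Shares of all genes called lower were 12.0% in MYC against control TAMs and 3.82% in MYC TAMs against MTMs, for each list of this paragraph. Of the 7 mitochondrial ribosome proteins filed under other symbols, 1 passed. Ptcd3, a pentatricopeptide protein of the small subunit, was at 4.47, 4.81 and 4.88 in MYC TAMs, below the 5.39, 5.89 and 5.72 of control TAMs (-0.94 ± 0.17, adjusted p = 0.00546 by limma) and the 5.63 and 5.61 of MYC MTMs (-0.90 ± 0.19, 0.0293). The first call held in all 19 alternatives, and the second was lost in 7 of 20, including those that left out mouse 2 or 4 from either MYC group, or mouse 5 from either control group. Among 23 assembly factors 1 passed, Noa1, a GTPase of ribosome assembly, lower in MYC than in control TAMs (-0.94 ± 0.16, adjusted p = 0.00449), a call that held in all 19 alternatives. With median centring 3 other assembly factors were called higher, and without MYC TAM mouse 4 the list had 3 lower. Among 16 translation factors 1 passed, Lrpprc, which stabilises mitochondrial messenger RNAs (-0.80 ± 0.20, 0.0235), also lower there (12.0% of all genes). The list had 0 calls with quantile normalisation, median centring or library weights, with only the groups compared, or without MYC TAM mouse 2, control TAM mouse 3 or control TAM mouse 5, and 4 lower without MYC TAM mouse 6. None of 8 genes of mitochondrial DNA transcription and replication passed in any comparison. In the list of mitochondrial content, 1 of 14 passed, the citrate synthase gene Cs, lower in MYC TAMs than in control TAMs (-0.70 ± 0.14, 0.00768) and MYC MTMs (-0.77 ± 0.15, 0.0216). The first held in all 19 alternatives, and the second was lost in 4 of 20, with quantile normalisation, with only the groups compared, and without MYC MTM mouse 2 or 4.

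Oxidative phosphorylation subunits of the nuclear genome, which assemble with the proteins made on mitochondrial ribosomes, were also rarely called. Of 76, 2 were lower in MYC than in control TAMs (12.0% of all genes), with a list median of -0.02. They were Ndufa9 (-0.64 ± 0.16, adjusted p = 0.0254 by limma) and Cox5a (-0.78 ± 0.22, 0.0424). With median centring 0 were lower and 5 higher (median 0.28). The list had 4 lower without MYC TAM mouse 2, 2 higher and 2 lower without mouse 6, 3 lower without control MTM mouse 3, and 0 without MYC TAM mouse 4, control TAM mouse 3 or control TAM mouse 5. It had 1 lower without any of the other 5 libraries, with library weights or with only the groups compared. Between MYC TAMs and MTMs 1 was lower, Ndufa4l2 (-0.89 ± 0.16, 0.0126), which lost its call in 4 of 19 alternatives, among them the fixed mouse block and the one without MYC MTM mouse 2. Of all genes, 3.82% were called lower between MYC TAMs and MTMs. In the other 3 comparisons none of the 76 passed. Of 79 cytosolic ribosomal protein genes, 1 was called in each of 2 comparisons, and both calls depended on the alternative. Rpl28 was higher in MYC than in control TAMs (1.88 ± 0.56, adjusted p = 0.0496 by limma). Of all genes, 3.89% were called higher there, and 116 of 17475 were called higher in MYC TAMs than MTMs. Rpl27 was higher in MYC TAMs than MTMs (3.49 ± 0.83, 0.0468), being at 1.61 and 1.33 in MYC MTMs, 2.08 in the control TAMs of mouse 5 and 4.32 to 5.90 in the other 8 libraries. Rpl28 lost its call in 13 of 19 alternatives and Rpl27 in 14 of 20, most of them with 1 library left out, of any group. In MYC minus control TAMs the list had 8 higher with median centring, 6 without MYC TAM mouse 6 and 0 without mouse 4, and its median of 0.29 became -0.16 without mouse 2. Between MYC TAMs and MTMs it had 7 higher with median centring, 2 without MYC TAM mouse 6 and 0 without mouse 2 or 4, where the median of 0.47 became -0.03 without mouse 2. The share of all genes called under each alternative was not set beside the counts of these lists, here and above. None of those counts is read as a result about a list.

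Of the 9 regulators listed, 1 passed, and it was lower in MYC TAMs. Of all genes, 12.0% were called lower there than in control TAMs and 3.82% lower than in MYC MTMs. The list includes coactivators, Myc, Nrf1, Yy1 and, of the ETS factors, Gabpa, but no SP factor. The mouse gene Myc was at 2.16, 1.92 and 1.78 in MYC TAMs, lower than in control TAMs, at 2.66, 3.18 and 3.11 (-1.02 ± 0.19, adjusted p = 0.00583 by limma), and than in MYC MTMs, at 2.87 and 3.02 (-0.99 ± 0.21, 0.0302). The groups did not overlap in either case. The first call held in all 19 alternatives. The second was lost in 9 of 20: with the fixed mouse block, with quantile normalisation, with only the groups compared, and on leaving out mouse 2 or 4 of the MYC MTMs, mouse 4 or 6 of the MYC TAMs, or mouse 5 of either control group. Whether the table's Myc entry holds reads of the transgene cannot be told from the values. Myc did not pass between MYC and control MTMs (0.31 ± 0.21, 0.733), where control MTMs were at 2.53, 2.62 and 2.75.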

How the data were processed

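Messenger RNA of sorted macrophages was measured in 11 libraries. Per the labels' protocols, input was 500 ng of RNA (integrity numbers between 3.3 and 9.6), selected for poly-A, made into stranded libraries and amplified for 8 cycles. Per the submitters' processing notes, HISAT2 and mm10 (GRCm38.p5) were used, with no role given. The authors deposited 1 table of log2 expression values for 17475 genes. Its formula is not stated, and the values behave as the log2 of 1 plus a read number scaled for depth and gene length: in each library 92.3 to 95.8% of low values came out as a whole number of reads, give or take 0.1. The depths, estimated from that spacing, cover counting error only.

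Members and lists were chosen with earlier results of these data known. Each library's group came from its title. A linear model of the 4 group means was fitted to the deposited values with limma 3.58.1 (R 4.3.3), with variances moderated along a trend of mean level (trend in eBayes) and no block. For 5 comparisons, two-sided p-values were adjusted over all 17475 genes by the Benjamini-Hochberg method, with 0.05 as the threshold. The script was tested on simulated data. Replicates are libraries of different mice, per the labels.

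The labels pair TAMs and MTMs by mouse. Deviations from the group means correlated at 0.176, 0.211 and 0.0779 in the control pairs, and limma's estimate over mice was 0.127. The MYC pairs cannot check this, as 2 MTM libraries mirror each other. Replicates were not copies, as log2 differences between them had an SD between 0.369 and 0.815 over 1729 genes.

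Members named with values were those past the threshold, the 3 highest and 3 lowest by mean, the 3 largest positive and negative differences of each comparison, Mrps18a, Mrps18b and Mrps18c and 9 chosen for their roles. Others, such as Mrpl1, Mrpl48, Mrpl54 and Mrps9, were named after their values were seen. From other lists, up to 3 passing genes with the smallest adjusted p were named, and Myc. The lists held 322 genes, of which 6 were not matched and 9 were matched through an older symbol. Alternatives (20) were blocks for the mouse, quantile normalisation, median centring, a mean of 1 or more, a pseudocount of 0.25, no variance trend, library weights, only the groups compared, and leaving out each library.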

Additional observations from a re-analysis of the deposited data

Results flagged for a closer look

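The TAM minus MTM difference of Mrpl27 differed between the genotypes: it was -1.79 in MYC mice, where both MTM libraries were high, and the difference of the differences was -1.53 ± 0.29 (SE), adjusted p = 0.0421 by limma over all genes. It was the 1 member of 75 that met this test, which 1.24% of all genes passed, and the call was lost under 11 of 19 alternatives.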

How the results depend on the processing

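Counts of members past the threshold, with the unaltered model first, depended on the alternatives as follows. Control TAM minus control MTM, 0: 1 with library weights, and 0 to 1 on leaving out each library (the members' median, -0.06, then lay between -0.10 and 0.078). MYC TAM minus MYC MTM, 1: 2 with the mouse as a random block, quantile normalisation, a mean of 1 or more, no variance trend or library weights, 4 with median centring, 0 with only the groups compared, and 1 to 2 on leaving out each library. MYC TAM minus control TAM, 0: 1 with a mean of 1 or more or library weights, 3 with quantile normalisation, 8 with median centring, and 0 to 3 on leaving out each library. MYC MTM minus control MTM, 1: 3 with library weights, 0 with only the groups compared, and 0 to 1 on leaving out each library. Difference of the differences, 1: 0 with the mouse as a fixed block, quantile normalisation or median centring, and 0 to 1 on leaving out each library. The members' median moved by more than its replicate spread with median centring, to 0.28 in MYC TAM minus MYC MTM, 0.29 in MYC TAM minus control TAM and 0.23 in the difference of the differences, and with quantile normalisation to 0.20 in MYC TAM minus control TAM. Apart from the medians under centring the cause was not tested. The share of all genes called under each alternative was not set beside the counts of members or of the other lists.

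With the mouse as a random block Mrpl41 also passed in MYC TAM minus MYC MTM. Apart from it and the Mrpl27 difference of differences, no member's call changed with a block, and with the fixed block Mrpl27 stayed past the threshold in MYC TAM minus MYC MTM (-1.65, adjusted p = 0.0148). The fixed block gives no value for the 2 comparisons between genotypes. Of 30 named member results, 21 stayed on their side of the threshold under all alternatives run, and none that was called changed sign. The 2 libraries of MYC MTMs bound what can be seen, and the power for changes of 1 log2 unit in these data was not measured.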
